A study of Homo sapiens with 12 samples.

Results

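The respiratory chain of mitochondria and the ATP synthase are built from subunits encoded by both the nuclear and the mitochondrial genome. Genes for these subunits were picked by symbol (MT-ND, MT-CO, MT-ATP and MT-CYB genes, NDUFA, NDUFB, NDUFC, NDUFS and NDUFV genes, UQCR genes, SDHA to SDHD, 10 COX genes and ATP5 genes). This gave 91 symbols, of which the pseudogene ATP5EP2 was dropped. The 90 remaining genes, of 13937 genes in the deposited table, comprised 13 mitochondrially encoded and 77 nuclear genes. The symbols also take in ATP5S and ATP5SL, now named DMAC2L and DMAC2, which are not subunits of the ATP synthase, and NDUFA4, which is counted with complex I by its symbol but is now regarded as a subunit of complex IV. All 90 passed the filter of at least 1 CPM (counts scaled to library size) in at least 2 libraries.

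The RNA came from WI-38, a fibroblast line derived from human fetal lung, after transfection of small interfering RNAs (siRNAs), and was read from the 3′ ends of transcripts. There were 12 libraries in 6 groups of 2. The cGAS_YT group received siRNAs against cGAS together with siRNAs against YAP and TAZ, and the cGAS group received cGAS siRNAs with the control siRNA. The STING_YT group received siRNAs against STING together with the YAP and TAZ siRNAs, and the STING group received STING siRNAs with the control siRNA. The YT group received the YAP and TAZ siRNAs with the control siRNA, and the control group received the control siRNA alone. YAP and TAZ, encoded by YAP1 and WWTR1, are coactivators of the Hippo pathway, cGAS senses cytosolic DNA and STING is its adaptor. The labels do not say whether the 2 libraries of a group are separate cultures. The p-values therefore rest on a spread between samples that could be technical.

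Electrons enter the chain at complex I (NADH dehydrogenase) or complex II (succinate dehydrogenase), pass through complex III (cytochrome bc1 complex) to complex IV (cytochrome c oxidase), and the proton gradient built on the way drives the ATP synthase, complex V. The mitochondrial genome encodes core subunits of complexes I, III, IV and V but none of complex II. Its genes are read as long polycistronic transcripts that are cut at the tRNAs lying between the genes, whereas each nuclear gene has its own promoter and its protein is imported.

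The libraries held between 17790774 and 20650727 reads. Each targeted transcript was reduced where its siRNAs had been given. YAP1 was left at 24.8% of the cGAS level in cGAS_YT, 16.2% of the STING level in STING_YT and 13.4% of the control level in YT, and WWTR1 at no more than 19.2% in the same comparisons. MB21D1, the older symbol of cGAS, was left at 23.6% of the control level in the cGAS group, and TMEM173, the older symbol of STING, at 7.39% in the STING group. WWTR1 was also lower in the cGAS group (-0.53 on the log2 scale) and in the STING group (-0.46) than in control. All 8 fibroblast markers were present. Their summed level was 22131 and 25195 CPM in cGAS_YT, 24512 and 23503 in cGAS, 37459 and 34613 in STING_YT, 31168 and 31146 in STING, 28412 and 27096 in YT, and 34526 and 33603 in control. Of 12 markers of other cell types, KRT8, KRT18, KRT15, CD68 and MYH11 were in the table, with a summed level of 32.01 to 53.1 CPM over the libraries, and EPCAM, CDH1, PTPRC, PECAM1, VWF, CDH5 and DES were not listed. The part of these marker differences in the results was not tested.

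The 13 mitochondrially encoded genes together took more reads than the 77 nuclear genes in every library, and the balance between them shifted between groups. They took 2.20% and 2.36% of reads in cGAS_YT, 2.38% and 2.27% in cGAS, 3.22% and 3.11% in STING_YT, 2.26% and 2.95% in STING, 2.23% and 1.83% in YT, and 2.27% and 1.46% in control. The lowest value was that of control replicate 2, and both STING_YT libraries lay above all others. The nuclear genes took 1.14% and 1.13% in cGAS_YT, 1.22% and 1.23% in cGAS, 1.15% and 1.13% in STING_YT, 1.33% and 1.31% in STING, 1.11% and 1.17% in YT, and 1.27% and 1.37% in control. In each of the 3 backgrounds both libraries with YAP and TAZ siRNAs were below both libraries without them. In these bulk samples fewer cells of a type and less RNA per cell cannot be told apart.

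The ratio of mitochondrial to nuclear reads was 1.93 and 2.09 in cGAS_YT against 1.95 and 1.85 in cGAS, 2.79 and 2.74 in STING_YT against 1.70 and 2.25 in STING, and 2.02 and 1.56 in YT against 1.78 and 1.06 in control. On the log2 scale the ratio differed by 0.08 in cGAS_YT against cGAS, by 0.50 in STING_YT against STING and by 0.37 in YT against control. Against control it differed by 0.47 in the cGAS group and by 0.51 in the STING group. The STING_YT libraries were both above the STING libraries, but the YT and control libraries overlapped, and so did the cGAS_YT and cGAS libraries. Without control replicate 2 the 3 differences from control came to -0.0048 for YT, 0.095 for cGAS and 0.14 for STING, and without control replicate 1 to 0.75, 0.84 and 0.89. Those 3 comparisons share the control libraries, so a low control library raises all of them. The 2 mitochondrial ribosomal RNAs showed the same split in control, with 19655 CPM in replicate 1 and 12399 CPM in replicate 2. The log2 ratio had a pooled SD between replicates of 0.067 in cGAS_YT against cGAS and 0.20 in STING_YT against STING. In YT against control it was 0.42, so that the YT difference was smaller than the spread. The pooled SD was 0.38 in cGAS against control and 0.43 in STING against control.

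**Figure D1:**
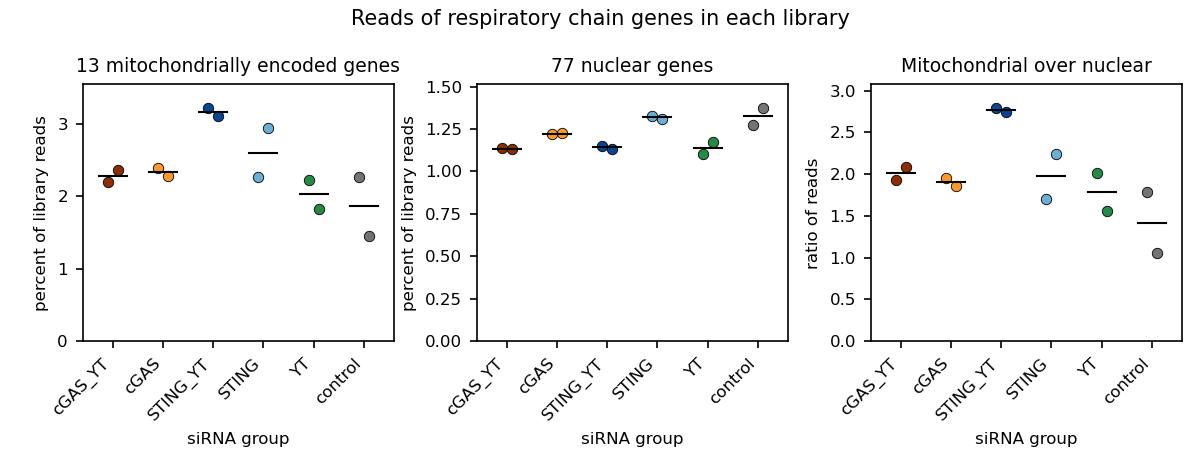
Percent of library reads taken by the 13 mitochondrially encoded genes (left) and the 77 nuclear genes (middle), and their ratio (right), with 1 point per library and a line at the mean of the 2 libraries of each siRNA group. The nuclear share is between 1.11% and 1.17% in the 6 libraries with YAP and TAZ siRNAs and between 1.22% and 1.37% in the 6 libraries without them, and the ratio is highest in STING_YT at 2.79 and 2.74.

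Changes of single genes were tested with limma on log2(CPM + 1), and a gene was called at a Benjamini-Hochberg adjusted p below 0.05 over 13894 genes. Errors given with a log2 change are its standard error. After YAP and TAZ siRNAs, calls among the nuclear genes were nearly all falls, although more than 40 of the 77 passed the test in neither direction in each comparison. In YT against control 34 of 77 nuclear genes (44.2%) fell and NDUFA5 rose, with a median change of -0.21, where 41.6% of all genes tested were called, 20.9% lower and 20.6% higher, and the median was 0.00. In STING_YT against STING 34 of 77 fell and none rose, with a median of -0.23, where 38.9% of all genes were called, 19.8% lower and 19.1% higher. In cGAS_YT against cGAS 16 of 77 (20.8%) fell and none rose, with a median of -0.09, where 27.7% of all genes were called, 12.7% lower and 15% higher.

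Well measured genes are called more often, and 69 of the 77 nuclear genes averaged at least 40 CPM. Of the 4597 genes in the table that averaged as much, 28.5% fell and 26.7% rose in YT against control, 29.6% fell and 21.9% rose in STING_YT against STING, and 18.8% fell and 18.7% rose in cGAS_YT against cGAS. Against these shares the excess of lowered nuclear genes held for YT and STING_YT, whereas the 20.8% in cGAS_YT was close to the background. For the risen nuclear genes numbering 0, limma gave 2 at an unadjusted p below 0.05 in cGAS_YT against cGAS and 0 in STING_YT against STING, and edgeR and DESeq2 on the recovered reads called 0 in both. With each library left out in turn, the count of called nuclear genes was 24 to 42 in YT, 6 to 26 in cGAS_YT and 18 to 41 in STING_YT. It was 6 to 8 in cGAS_YT without any 1 of the 4 cGAS and cGAS_YT libraries and 26 without YT replicate 3 or 4, and in STING_YT it was 18 without STING replicate 13 and 21 without STING_YT replicate 16.

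These 3 comparisons share no library. Of the 77 nuclear genes 52 (67.5%) were below 0 in all 3 of them, where 28.4% of all genes tested and 34.7% of those averaging 40 CPM or more were. In at least 1 comparison 47 (61%) fell, where 29.3% and 40.6% did. In all 3 comparisons 12 (15.6%) fell, where 7.89% and 12.1% did, so that this share was near that of genes averaging 40 CPM or more. The 12 were NDUFB5, NDUFB1 and NDUFA11 of complex I, SDHC of complex II, UQCRH, UQCRQ and UQCR10 of complex III, COX5A and COX8A of complex IV, and ATP5G1, ATP5G3 and ATP5J of complex V. Of the 34 genes lowered in YT and the 34 lowered in STING_YT 22 were shared, or 64.7% of each, close to the 63.5% of all genes lowered in YT that were also lowered in STING_YT. Averaged over the 3 backgrounds, 47 of 77 nuclear genes (61%) fell and 2 rose, NDUFA5 among them, where 55.9% of all genes were called, 26.5% lower and 29.4% higher. Of the genes averaging 40 CPM or more, 36.4% fell and 31.8% rose. The calls of UQCR10 in YT and of UQCRH, UQCR10 and ATP5G3 in cGAS_YT were each lost in 4 to 8 of the 12 fits that left out a library, those in cGAS_YT each without cGAS replicate 7 or 8 among others.

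**Figure D2:**
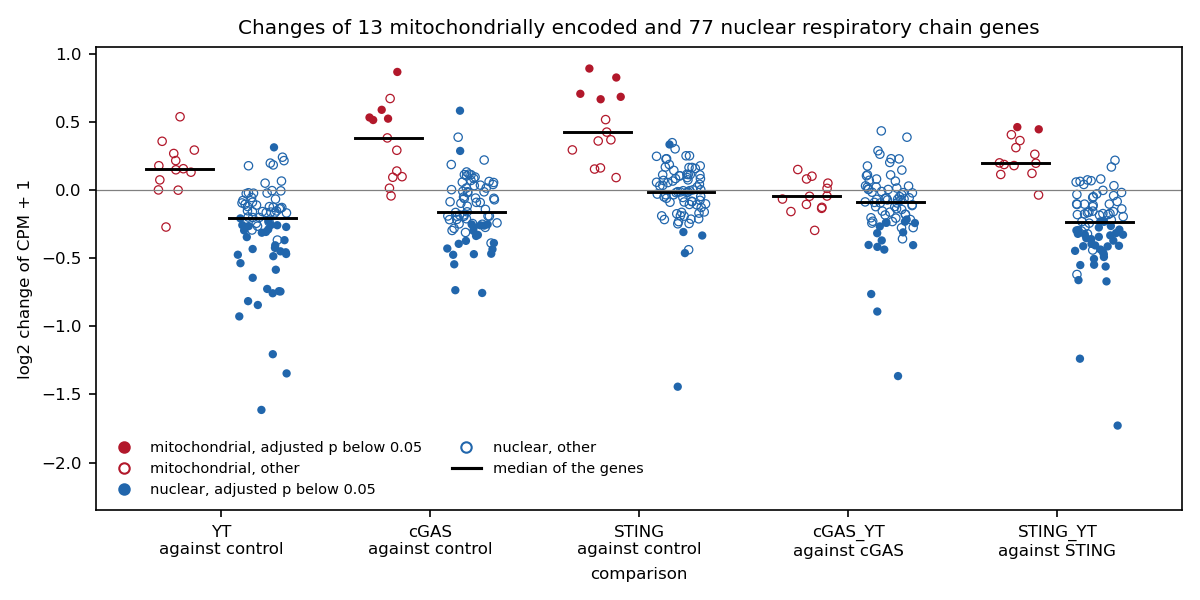
Log2 change of CPM + 1 of each mitochondrially encoded (red) and nuclear (blue) gene in 5 comparisons, with filled points for an adjusted p below 0.05 and black lines at the median of the genes. The nuclear medians are -0.21, -0.16, -0.01, -0.09 and -0.23 from left to right, and the mitochondrial medians are 0.16, 0.38, 0.43, -0.05 and 0.20.

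Complex I has the most nuclear genes here, 37 with NDUFA4, and 24 of them, NDUFA4 included, fell on the average of the 3 YT comparisons. NDUFB5, an accessory subunit of the membrane arm (chr3:179604690-179627647, plus strand, GRCh38), fell most in all 3 comparisons. Its level was 28.8 and 26.7 CPM in cGAS_YT against 68.1 and 78.2 in cGAS. It was 24.9 and 20.6 CPM in STING_YT against 76.8 and 77.7 in STING, and 25.8 and 19.9 CPM in YT against 69.5 and 73.2 in control. The groups with and without YAP and TAZ siRNAs were far apart in each background and close to one another across backgrounds. The log2 change was -1.36 ± 0.13, -1.73 ± 0.13 and -1.61 ± 0.13 in cGAS_YT, STING_YT and YT, the last a 3.06-fold fall, and the limma adjusted p on the average was 2.75e-11.

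NDUFA12, another accessory subunit, had 42.6 and 40.8 CPM in YT against 68.6 and 83.4 in control (-0.84 ± 0.10). It also fell in STING_YT, with 59.7 and 63.3 CPM against 86.2 and 85.1 in STING (-0.47 ± 0.10). In YT against control the size of the falls of NDUFB3 and SDHD rests on YT replicate 4, which was far below replicate 3. NDUFB3 had 51.9 CPM in YT replicate 3 and 17.8 in replicate 4, against 72.8 and 86.0 in control. It had 56.4 and 53.8 CPM in STING_YT against 83.7 and 86.6 in STING. In cGAS_YT it had 68.7 and 63.8 CPM against 86.3 and 83.9 in cGAS, and neither change was called. SDHD, a membrane anchor of complex II, had 17.0 CPM in YT replicate 3 and 2.47 in replicate 4, against 15.5 and 19.1 in control, and its call was lost without YT replicate 4, either control replicate and 7 of the other libraries, and by edgeR and DESeq2.

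Among the nuclear core subunits of complex I, which carry the iron-sulfur clusters and the flavin, average changes were smaller than those of NDUFB5 and NDUFA12. NDUFS8 and NDUFS7 averaged -0.24 ± 0.06 and -0.20 ± 0.06 over the backgrounds and were called, and NDUFS3 averaged -0.12 ± 0.06 and was not. NDUFV1, the flavin-binding subunit, had 56.9 and 68.8 CPM in STING_YT against 80.0 and 81.1 in STING (-0.36 ± 0.11, lost without STING replicate 13 or 14 or STING_YT replicate 15), and averaged -0.30 ± 0.06 over the backgrounds. NDUFS1, which carries several iron-sulfur clusters, averaged -0.07 ± 0.05 and was not called in any single comparison. NDUFA5, an accessory subunit of the matrix arm, was the nuclear gene that rose in most comparisons. It had 48.1 and 58.9 CPM in YT, 65.0 and 63.7 in cGAS, and 55.3 and 52.8 in STING, against 40.5 and 44.9 in control. All 6 libraries of these 3 groups were above both control libraries. The changes were 0.31 ± 0.11, 0.58 ± 0.11 and 0.33 ± 0.11, of which the cGAS call held without any library, the YT call was lost without control replicate 1 or YT replicate 4, and the STING call was lost in 8 of 12 such fits. NDUFV3, a small accessory subunit of the NADH-oxidising part, had 156.3 and 149.3 CPM in cGAS against 120.4 and 129.8 in control (0.29 ± 0.09), a call lost when any 1 control or cGAS library was left out. It fell in STING_YT, with 90.4 and 82.8 CPM against 120.6 and 123.5 in STING (-0.49 ± 0.09).

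**Figure D3:**
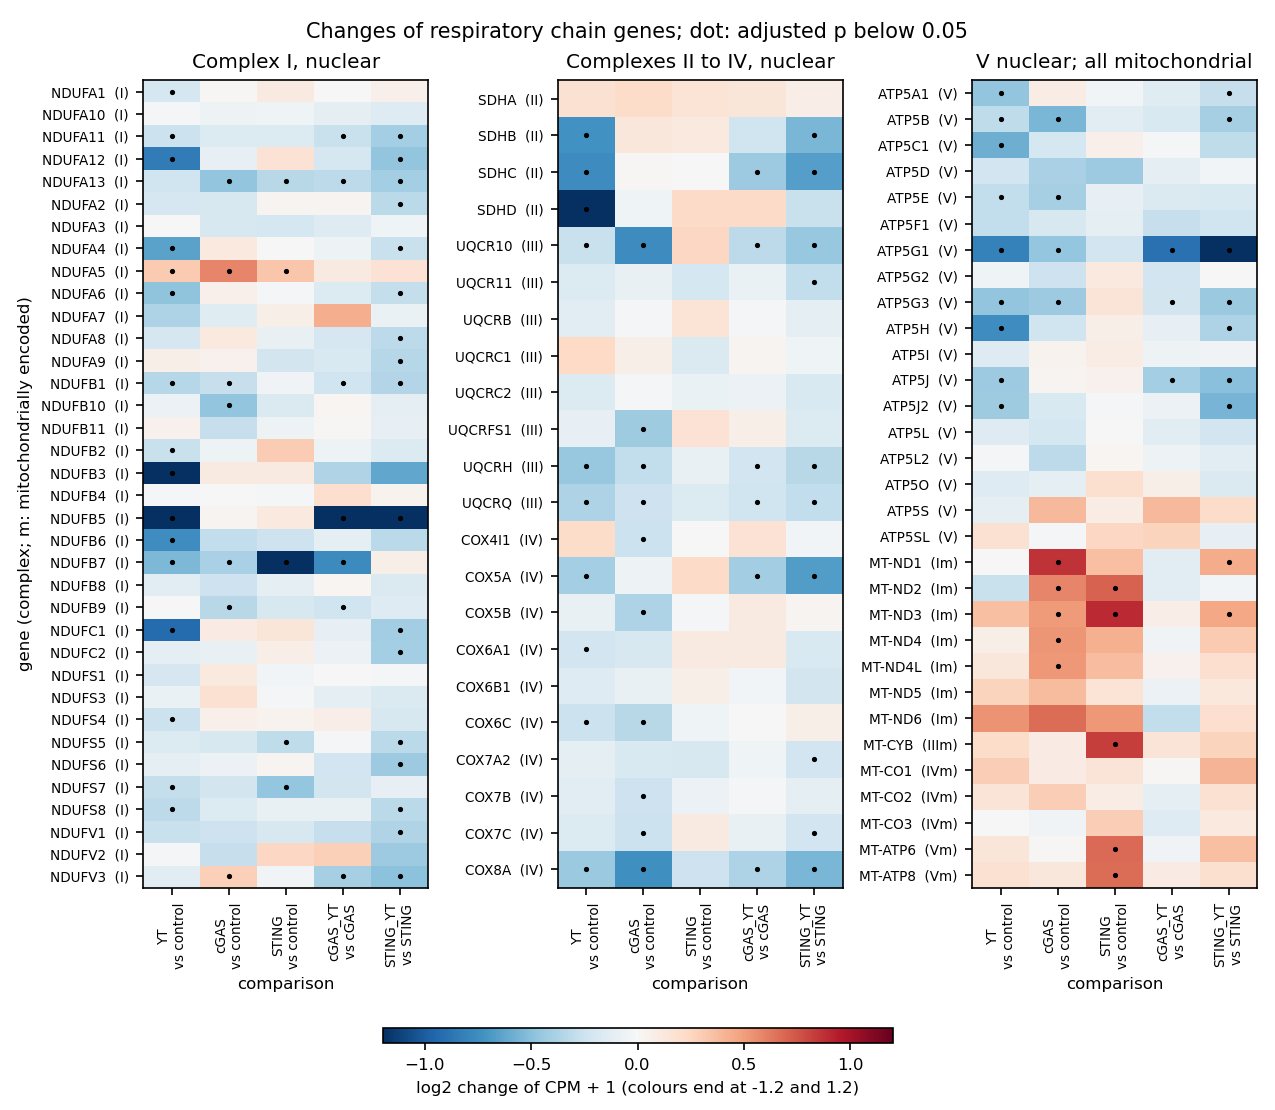
Log2 change of CPM + 1 of the genes (rows, grouped by complex) in 5 comparisons (columns), blue for lower and red for higher in the group named first, with a dot at an adjusted p below 0.05. NDUFB5 and ATP5G1 are blue in all 3 comparisons of YAP and TAZ siRNAs, NDUFB7 is the bluest gene of the STING column at -1.44, and the mitochondrial genes are mostly red in the cGAS and STING columns.

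Complex II links the chain to the citric acid cycle. SDHC, a heme-holding membrane anchor, had 121.0 and 103.1 CPM in cGAS_YT against 152.6 and 150.4 in cGAS. It had 97.7 and 90.7 CPM in STING_YT against 146.0 and 152.9 in STING, and 96.6 and 80.7 CPM in YT against 149.7 and 150.1 in control. The groups did not overlap, and it averaged -0.62 ± 0.06 over the backgrounds, with the cGAS_YT call lost without cGAS_YT replicate 10. SDHB, the iron-sulfur subunit, had 34.9 and 34.8 CPM in STING_YT against 50.5 and 52.5 in STING, and 35.0 and 22.9 CPM in YT against 45.4 and 49.8 in control. Its changes there were -0.55 ± 0.15 and -0.73 ± 0.15, the first lost without STING replicate 14, and in cGAS_YT against cGAS it was not called (-0.24 ± 0.15). SDHA, the flavoprotein, did not follow them: it averaged 0.14 ± 0.07 and was not called.

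In complex III 5 of 8 nuclear genes fell on the average of the backgrounds, led by small subunits. UQCRH, the hinge protein, had 183.0 and 198.3 CPM in cGAS_YT against 223.0 and 224.9 in cGAS, 202.6 and 209.2 in STING_YT against 264.9 and 254.2 in STING, and 210.04 and 191.7 in YT against 270.7 and 280.8 in control. Its average change was -0.34 ± 0.05. The core protein genes UQCRC1 and UQCRC2 averaged 0.07 ± 0.07 and -0.14 ± 0.05, and of the pair UQCRC2 was called, a call lost in 9 of 12 fits leaving out a library. In complex IV 5 of 10 nuclear genes fell. COX5A had 89.9 and 87.8 CPM in cGAS_YT against 119.5 and 118.4 in cGAS, 96.05 and 86.4 in STING_YT against 144.3 and 146.8 in STING, and 91.9 and 95.1 in YT against 114.1 and 135.0 in control. Its average was -0.50 ± 0.05. COX4I1, another nuclear subunit, averaged 0.12 ± 0.05 and was not called.

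Of the 18 nuclear genes with ATP5 symbols 11 fell on the average, and ATP5S and ATP5SL were not among them (0.16 ± 0.09 and 0.11 ± 0.06, not called). ATP5G1 (now ATP5MC1, chr17:48892765-48895871, plus strand, GRCh38) is 1 of 3 genes for the same mature subunit c, which forms the rotor ring. It had 70.7 and 61.6 CPM in cGAS_YT against 120.6 and 126.1 in cGAS, 56.4 and 66.2 in STING_YT against 145.3 and 145.4 in STING, and 93.98 and 99.5 in YT against 161.8 and 180.4 in control. All 6 libraries with YAP and TAZ siRNAs were below all 6 without them, and the changes were -0.89 ± 0.10, -1.24 ± 0.10 and -0.81 ± 0.10. The other subunit c genes, which make the same mature protein, had smaller changes. ATP5G3 (ATP5MC3) averaged -0.38 ± 0.04 and ATP5G2 (ATP5MC2), with 267.5 to 445.2 CPM, averaged -0.10 ± 0.05 and was not called. The catalytic subunit gene ATP5B (ATP5F1B) averaged -0.29 ± 0.05 and ATP5A1 (ATP5F1A) -0.30 ± 0.05. ATP5J (ATP5PF), the coupling factor of the stalk, had 161.2 and 157.0 CPM in cGAS_YT against 219.9 and 202.2 in cGAS, and 149.7 and 154.6 CPM in YT against 201.1 and 210.3 in control, and averaged -0.45 ± 0.04.

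**Figure D4:**
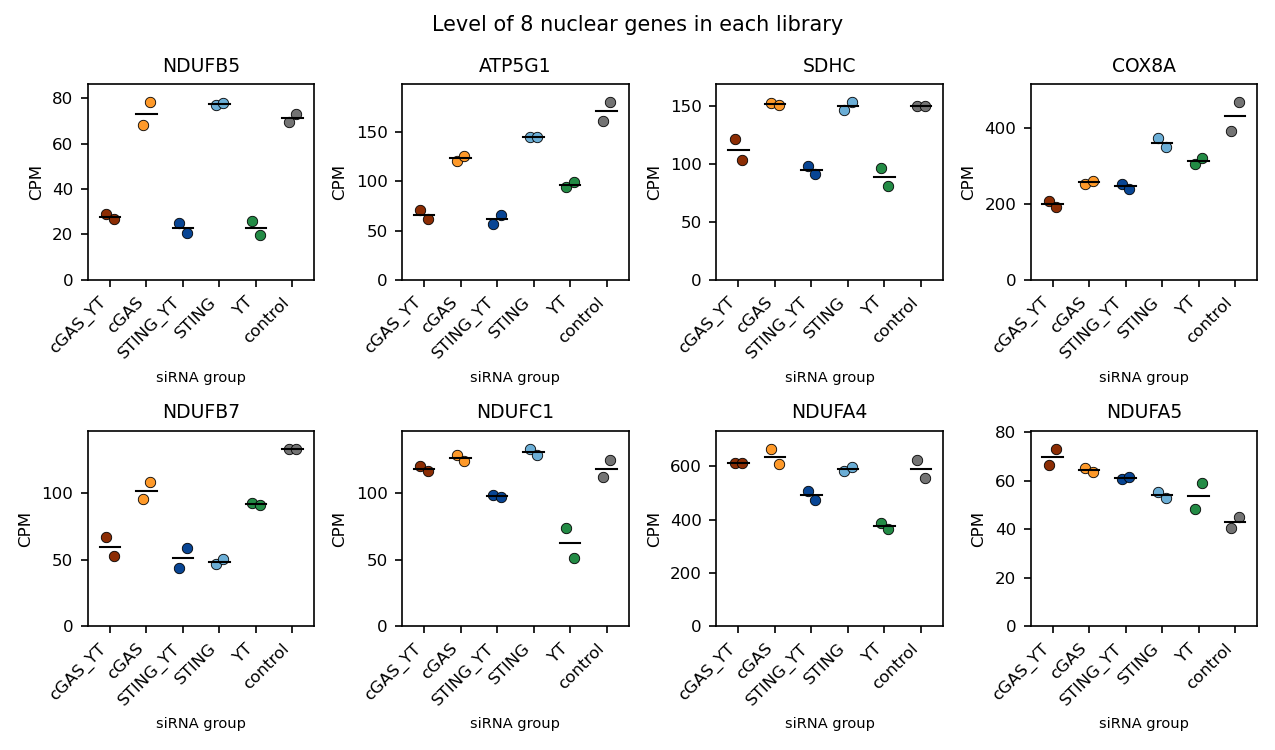
CPM of 8 nuclear genes, with 1 point per library and a line at the mean of the 2 libraries of each siRNA group. NDUFB5 is at 19.9 to 28.8 CPM in the 6 libraries with YAP and TAZ siRNAs and at 68.1 to 78.2 CPM in the other 6, whereas NDUFC1 and NDUFA4 are lowest in YT alone and NDUFB7 is low in both STING groups.

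The cGAS siRNAs alone lowered 19 of 77 nuclear genes (24.7%) and raised 2, with a median of -0.16, where 25.4% of all genes were called, 14.3% lower and 11.1% higher, and the median was -0.02. Of the genes averaging 40 CPM or more 21.4% fell and 15.6% rose. The lowered share was thus close to the background, whereas the raised share, 2 of 77, was below it. The 2 largest falls were in complexes III and IV. UQCR10, a small subunit of complex III, had 56.6 and 62.5 CPM in cGAS against 91.8 and 111.4 in control (-0.76 ± 0.10, limma adjusted p = 4.09e-05). COX8A, a small subunit of complex IV, had 252.9 and 260.7 CPM in cGAS against 392.3 and 466.7 in control (-0.73 ± 0.09). Adding YAP and TAZ siRNAs brought COX8A to 207.1 and 190.3 CPM in cGAS_YT (-0.37 ± 0.09 against cGAS), a call lost without cGAS replicate 8 or cGAS_YT replicate 10. ATP5B had 298.0 and 303.2 CPM in cGAS against 397.4 and 484.7 in control (-0.54 ± 0.09). By complex, 6 of 10 nuclear genes of complex IV and 4 of 8 of complex III fell, with 5 of 37 of complex I, 4 of 18 of complex V and 0 of 4 of complex II. The count of called nuclear genes was 11 without control replicate 2, 12 without cGAS replicate 7 or 8, and 33 without YT replicate 3 or 4, whose spread enters the shared error.

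The STING siRNAs alone lowered 4 of 77 nuclear genes (5.19%) and raised 1, with a median of -0.01, where 15% of all genes were called, 8.86% lower and 6.14% higher, and 14.5% of the genes averaging 40 CPM or more fell. NDUFB7, an accessory subunit of complex I on the side of the intermembrane space (chr19:14566078-14572062, minus strand, GRCh38), stood apart from the rest. It had 46.5 and 50.2 CPM in STING against 133.2 and 132.8 in control, a 2.72-fold fall (-1.44 ± 0.13, limma adjusted p = 1.61e-06). In STING_YT it had 44.0 and 58.3 CPM (0.07 ± 0.13 against STING). In YT it had 92.1 and 90.6 CPM (-0.54 ± 0.13 against control), and in cGAS_YT 66.6 and 52.8 CPM against 95.1 and 107.9 in cGAS (-0.76 ± 0.13). Both STING groups and cGAS_YT held the lowest levels. The other lowered genes were NDUFA13, NDUFS5 and NDUFS7 at -0.31 to -0.46, and NDUFA5 rose. The count of called nuclear genes was 14 without YT replicate 3 or 4, 1 without STING replicate 14, and 2 or 3 without control replicate 1, either cGAS or STING_YT replicate or STING replicate 13.

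The effect of YAP and TAZ siRNAs differed between the control and the cGAS background for 6 of 77 nuclear genes, each with a smaller fall in the cGAS background. Of all genes 13.4% differed, 7.5% with a positive and 5.93% with a negative interaction, and of those averaging 40 CPM or more 10.4% and 9.18%. They were NDUFC1, NDUFA4, NDUFB6, NDUFA12, ATP5C1 (ATP5F1C, the rotor shaft) and ATP5H (ATP5PD, a stalk subunit). NDUFC1 had 120.3 and 116.1 CPM in cGAS_YT against 128.5 and 124.0 in cGAS, but 73.9 and 51.4 CPM in YT against 112.0 and 124.3 in control (interaction 0.83 ± 0.17, limma adjusted p = 0.00378). NDUFA4 had 612.0 and 612.1 CPM in cGAS_YT against 666.7 and 607.9 in cGAS, but 388.3 and 364.9 CPM in YT against 622.8 and 556.5 in control (0.59 ± 0.12). In STING_YT it had 508.9 and 473.9 CPM against 581.5 and 597.9 in STING. ATP5H had an interaction of 0.65 ± 0.13 and NDUFA12 of 0.64 ± 0.14. Those of NDUFB6 (0.63 ± 0.19) and ATP5C1 (0.56 ± 0.16) were called in 2 and in 5 of the 12 fits leaving out a library, and in neither case without YT replicate 4, control replicate 2 or either cGAS replicate. No nuclear gene had a negative interaction with cGAS by limma, at an unadjusted p below 0.05 or by edgeR or DESeq2. The share of positive interactions was close to the background. Negative ones, absent by limma among the nuclear genes, made up 5.93% of all genes and 9.18% of those averaging 40 CPM or more. The count depended on which libraries were kept. The 6 genes also had positive interactions with STING, from 0.28 for ATP5C1 to 0.51 for NDUFC1, none of them called. Both interactions subtract the same change, that of YT against control, so they are not independent. Whether the smaller fall is particular to the cGAS background was not tested. With the STING background only NDUFB7 among the 77 differed (0.61 ± 0.18, limma adjusted p = 0.0481), where 7.88% of all genes differed, 3.35% with a positive and 4.53% with a negative interaction, and 5% and 8.07% of those averaging 40 CPM or more. That call was lost when any 1 control, cGAS or STING library or STING_YT replicate 16 was left out, and under 7 other settings, and without YT replicate 3 the count of nuclear genes was 19. For negative interactions with STING limma gave 4 nuclear genes at an unadjusted p below 0.05, and edgeR and DESeq2 called 0.

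The called changes among the mitochondrially encoded genes were rises, and they varied with the control libraries. In cGAS against control 5 of 13 rose and 0 fell, with a median of 0.38, where 11.1% of all genes and 15.6% of those averaging 40 CPM or more rose. In STING against control 5 of 13 rose and 0 fell, with a median of 0.43, where 6.14% of all genes and 9.59% of those averaging 40 CPM or more rose. In STING_YT against STING 2 of 13 rose (15.4%), with a median of 0.20, where 19.1% of all genes rose, and both calls were lost without STING replicate 13 or either STING_YT replicate. In cGAS_YT against cGAS and in YT against control limma called 0 of 13, with 0 and 2 at an unadjusted p below 0.05, edgeR called 0 in both, and DESeq2 called 0 and 1. Each of the 13 genes was lower in control replicate 2 than in replicate 1, by over 1.5-fold for 10 of them. Without control replicate 2 limma called 1 of 13 in cGAS and 1 in STING, and without control replicate 1 it called 10 in cGAS, 11 in STING and 7 in YT. Without YT replicate 3 or 4 it called 8 in STING and 1 in YT, and 1 in YT also without control replicate 2. Without STING replicate 14, or cGAS replicate 7 or 8, 1 of 13 was called in the comparison of that group.

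In cGAS the 5 called genes were subunits of complex I, which MT-ND genes encode. MT-ND1 had 704.3 and 658.5 CPM in cGAS against 433.9 and 320.6 in control (0.87 ± 0.15, limma adjusted p = 0.000502), and its call held without any single library. MT-ND2, MT-ND3, MT-ND4 and MT-ND4L rose by 0.51 to 0.59, and these 4 calls were lost without control replicate 2 or either cGAS replicate. MT-ND5 and MT-ND6, also of complex I, were at 0.38 ± 0.21 and 0.67 ± 0.24 and not called. In STING the called genes were MT-ND2 and MT-ND3, MT-CYB of complex III, and MT-ATP6 and MT-ATP8 of the ATP synthase. MT-ND3 had 3316 and 4416 CPM in STING against 2433 and 1747 in control (0.89 ± 0.15), a call that held without any single library. It had 5494 and 5059 CPM in STING_YT (0.46 ± 0.15 against STING). MT-CYB had 2170 and 2902 CPM in STING against 1720 and 1165 in control (0.83 ± 0.18), a call lost without control replicate 2 or STING replicate 14. None of the 3 complex IV genes, MT-CO1, MT-CO2 and MT-CO3, was called in any of the 5 comparisons. Whether cGAS and STING differ from one another for a gene was not tested.

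Shares within the 13-gene total remove the common level of a library, including the low total of control replicate 2. MT-ND1 made up 2.42% to 3.24% of the 13-gene reads in the 4 libraries with cGAS siRNAs, 1.79% to 2.10% in the 4 with STING siRNAs and 1.81% to 2.14% in the 4 with neither. MT-ND4 made up 17.9% to 19.2% with cGAS siRNAs, at most 16.01% with STING siRNAs and at most 15.9% with neither. For both genes the cGAS libraries lay above all 8 others. MT-ATP6 made up 5.38% to 6.94% with cGAS siRNAs, 8.40% to 9.54% with STING siRNAs and 7.33% to 7.74% with neither, so that the 3 kinds of library did not overlap. MT-CYB made up 9.45% to 9.87% with STING siRNAs, and at most 8.43% in the 8 others. MT-CO2 made up 10.3% to 11.3% with STING siRNAs, 13.2% to 14.6% with cGAS siRNAs and 14.3% to 15.1% with neither. MT-CO3, the most abundant of the 13 on the mean of the libraries, made up 15.6% to 18.2% with cGAS siRNAs, 17.6% to 20.2% with STING siRNAs and 20.6% to 23.0% with neither. In each library with cGAS siRNAs it was below MT-ND4. These shares are a description with no test, and they show unequal levels, not which gene changed. MT-ATP8 overlaps MT-ATP6 and MT-ND4L overlaps MT-ND4 on the genome, so reads of each pair may not be told apart.

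**Figure D5:**
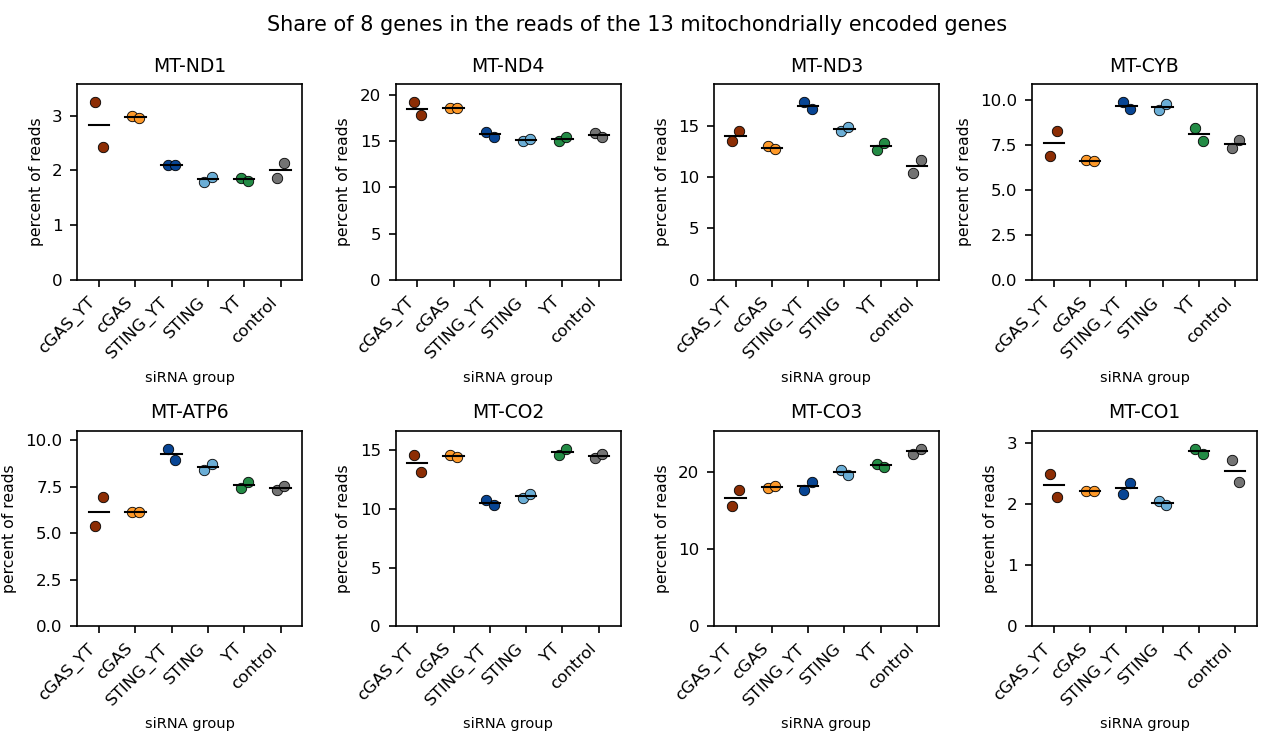
Share of each of 8 genes in the reads of the 13 mitochondrially encoded genes, in percent, with 1 point per library and a line at the mean of the 2 libraries of each siRNA group. MT-ND1 and MT-ND4 are highest in the cGAS groups, and MT-CYB and MT-ATP6 are highest and MT-CO2 lowest in the STING groups, with or without YAP and TAZ siRNAs.

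Across all 6 groups the limma F test called 73 of the 90 genes (81.1%), 64 nuclear and 9 mitochondrial, where 75.7% of all genes were called. The 5 with the smallest p were NDUFB5, ATP5G1, UQCR10, NDUFB7 and COX8A, and they ranked from 382 to 1357 among the 13894 genes. Levels spanned a wide range. The nuclear genes averaged 1.11 to 591 CPM with a median of 116 CPM, and the mitochondrial genes 50.1 to 4557 CPM with a median of 1552 CPM. NDUFV2, a core subunit of complex I, had only 0.942 to 3.20 CPM and was not called in any comparison, and ATP5L2 (ATP5MGL) had 0.331 to 1.56 CPM. Values of genes with closely similar pseudogenes are uncertain where the counting could split their reads.

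Promoters are shown because many respiratory chain genes are known targets of NRF1 and of the ETS factor GABP (NRF2). In the 250 bases before the transcription start, from RefSeq on GRCh38.p14, which matched 62 of the 77 nuclear genes, the NRF1 motif (GCGCA, any base, then GCGC) was in 13 (21%) and the ETS motif CCGGAAG in 17 (27.4%), on either strand. Among 10261 matched genes of the deposited table they were in 12.1% and 19.2%. A total of 28 of the 62 (45.2%) held at least 1 of them, against 28.9% of the table. After YAP and TAZ siRNAs 15 of 28 with a motif fell on the average of the backgrounds (median -0.17), and 23 of 34 with neither fell (median -0.17). The lines give 100 bases each, 5′ to 3′ on the gene's strand, with motif matches in capitals (CTTCCGG is the ETS motif read on the other strand), for genes lowered by YAP and TAZ siRNAs in the results above, at chr12:95003734-95003833 (NDUFA12, minus strand), chr1:17054081-17054180 (SDHB, minus), chr11:63974520-63974619 (COX8A, plus) and chr21:25735055-25735154 (ATP5J, minus). A match describes the letters only and shows no binding.
NDUFA12: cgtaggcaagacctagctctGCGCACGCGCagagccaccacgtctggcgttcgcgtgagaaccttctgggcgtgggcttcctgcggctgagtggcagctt
SDHB: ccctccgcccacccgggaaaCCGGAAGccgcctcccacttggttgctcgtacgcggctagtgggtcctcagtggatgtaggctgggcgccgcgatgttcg
COX8A: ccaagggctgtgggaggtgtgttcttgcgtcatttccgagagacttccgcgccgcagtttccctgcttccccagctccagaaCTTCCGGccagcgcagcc
ATP5J: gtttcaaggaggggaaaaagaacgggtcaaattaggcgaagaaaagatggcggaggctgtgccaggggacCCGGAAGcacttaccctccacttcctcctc

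An earlier search of these same libraries had linked 3 heptamers in 3′ untranslated regions (UTRs) to lower levels after each siRNA treatment, so their presence here is a description and not independent. GGAACTT, linked to the YAP and TAZ siRNAs, is in a 3′ UTR of 13.3% of 11971 genes and of 4 of the 77 nuclear genes, NDUFB5, SDHC, NDUFB6 and NDUFS3. NDUFB5 holds it in 3 of 6 coding transcripts of GENCODE 29. It is at base 13 of a UTR of 513 bases in the holding transcript with the shortest UTR. Its place in the other transcripts of NDUFB5, where the same bases could be coding, was not examined, nor which transcript these cells use. SDHC and NDUFB6 each hold it in 1 of 3, that of SDHC at base 5400 of a UTR of 12907 bases. NDUFB5, SDHC and NDUFB6 fell in YT against control, at -1.61, -0.76 and -0.74, and NDUFS3 was at -0.08 and not called. Of all genes tested 20.9% fell there. The median was -0.07 over all genes holding GGAACTT and 0.005 over those without it. GCATTCA, linked to the cGAS siRNAs, is in 12.8% of genes and in 6 of the 77. Of these ATP5G3, UQCRFS1 and COX7B fell in cGAS against control, at -0.43, -0.43 and -0.25, the last 2 lost without control replicate 2 or cGAS replicate 8, NDUFV3 rose, and SDHC and NDUFS1 were not called. Of all genes tested 14.3% fell in that comparison. The median was -0.14 over all genes holding GCATTCA and -0.01 over those without it. GTCATAT, linked to the STING siRNAs, is in 10.6% of genes and in 4 of the 77 (ATP5F1, NDUFA5, NDUFB2 and NDUFB6), none of which fell in STING against control. Sites of 4 of the lowered genes are given with 10 flanking bases on each side, the heptamer in capitals. Each is from the holding transcript with the shortest UTR. The siRNA sequences were not used here, and a match shows no pairing.
NDUFB5: caattgacaaGGAACTTattgatcatt
SDHC: atggagaatgGGAACTTacctggttgg
ATP5G3: tgacatgttgGCATTCAtattaattac
UQCRFS1: atactttcagGCATTCActtaataaag

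Other mitochondrial gene lists moved with the nuclear subunits on the average of the 3 YT comparisons, where 26.5% of all genes fell and 29.4% rose. Among genes averaging 40 CPM or more these shares were 36.4% and 31.8%, and the lists were not matched to either background by level. Of 17 genes for protein import and the outer membrane 15 fell and 0 rose, with a median of -0.43. TIMM17A, part of the inner membrane translocase, had 41.3 and 37.4 CPM in cGAS_YT against 107.3 and 112.8 in cGAS, 25.7 and 23.5 in STING_YT against 87.5 and 88.0 in STING, and 44.9 and 43.3 in YT against 87.1 and 96.4 in control. It averaged -1.43 ± 0.05, and TOMM6, of the outer membrane translocase, averaged -1.19 ± 0.05. Of 77 mitochondrial ribosomal protein genes 46 fell and 4 rose (median -0.26), and of 13 citric acid cycle genes other than SDHA to SDHD 9 fell and 0 rose (median -0.28). Of 49 assembly factors of the chain 23 fell and 5 rose. COX15, which makes the heme of complex IV, had 10.5 and 10.5 CPM in cGAS_YT against 26.0 and 23.7 in cGAS, and 13.2 and 13.9 CPM in YT against 26.5 and 26.5 in control, and averaged -0.93 ± 0.07. Of 10 subunits and carriers outside the symbol rule 7 fell and 0 rose, with CYCS, cytochrome c, at -0.42 ± 0.06 and CYC1 at -0.16 ± 0.05.

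Genes that keep or read the mitochondrial genome were mostly lower too. Of 15 genes for its maintenance and transcription 9 fell and 2 rose. TFAM, which packages the genome and starts its transcription, had 26.5 and 28.3 CPM in cGAS_YT against 39.8 and 39.1 in cGAS, 22.9 and 24.2 in STING_YT against 36.5 and 41.5 in STING, and 25.1 and 22.1 in YT against 35.97 and 34.6 in control, and averaged -0.59 ± 0.06. POLRMT, the mitochondrial RNA polymerase, averaged -0.27 ± 0.13 and was not called. Of 19 genes for mitochondrial RNA processing and decay 13 fell and 1 rose, with FASTKD1 at -1.26 ± 0.12. PNPT1, which degrades mitochondrial RNA, was higher with cGAS siRNAs, at 42.5 and 35.2 CPM in cGAS against 16.2 and 17.2 in control (1.17 ± 0.21). LRPPRC, which stabilises mitochondrial messenger RNA, had 73.4 and 67.4 CPM in STING against 55.1 and 53.4 in control (0.37 ± 0.10). Of 11 nuclear regulators 4 rose and 2 fell. PPARGC1A, the coactivator PGC-1α, was low throughout and averaged 0.95 ± 0.14 higher, with 2.32 and 3.24 CPM in YT against 0.675 and 0.114 in control, and MYC averaged -1.29 ± 0.18.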

How the data were processed

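Per the labels' protocols the libraries cover transcript 3′ ends. Tools listed in the submitters' processing notes are STAR (2.5.3a), edgeR and featureCounts, and the build is hg38. The gene annotation and strand setting are not stated in any source used here. The deposited values are a signal per gene and library, CPM divided by TMM factors as the values show. Every value (100%) was a multiple of 1 read within 0.01 reads, so reads could be recovered. The tests planned for CPM were used.

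A single limma 3.58.1 fit (R 4.3.3) covered log2(CPM + 1) of the 12 libraries and 13894 genes (1 CPM or more in 2 or more libraries), with a mean-dependent prior and 6 residual degrees of freedom. Each contrast was adjusted over all genes by Benjamini-Hochberg at 0.05. Changes of low genes are understated on this scale. Alternatives were pseudocounts of 0.25 and 4, no filter, a mean of 5 CPM, median-of-ratios scaling, plain CPM, scaling without mitochondrial reads, a constant prior, only the groups compared, edgeR 4.0.16 quasi-likelihood and DESeq2 1.42.0 on recovered reads, and each library left out; a sample left alone in its group is then taken to vary like those of other groups. The code was tested on simulated counts.

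Genes, lists, heptamers and tests were chosen with earlier results of these data known. The text names a selection of the 13 mitochondrial genes, the 8 nuclear genes with the smallest p of each contrast, the 12 of the F test, paralogs, the highest and lowest genes, the targeted genes and up to 4 genes of each further list, with PNPT1, POLRMT, TFAM, LRPPRC, PPARGC1A, CYCS and CYC1. Those named for a role, motif or count outside that rule, and the 40 CPM background, were chosen after values were seen. Positions are from GENCODE 29 (GRCh38). Of 1 gene that is counted in the totals, the values are not reported here.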

Additional observations from a re-analysis of the deposited data

Results flagged for a closer look

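The effect of YAP and TAZ siRNAs differed between the cGAS and the control background, by the limma interaction test, for 6 genes. On the log2 scale, as cGAS_YT against cGAS minus YT against control, the difference was 0.83 for NDUFC1, 0.65 for ATP5H, 0.64 for NDUFA12, 0.63 for NDUFB6, 0.59 for NDUFA4 and 0.56 for ATP5C1. The effect in the STING background differed from that in the control background for NDUFB7, by 0.61. Both tests subtract YT against control, and the 6 genes also had positive interactions with STING that were not called. With 2 libraries in a group, no library was tested for standing apart within its group.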

How the results depend on the processing

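All 180 calls of single genes kept their direction under every alternative run, and 117 to 180 of them stayed called under the alternatives that kept all 12 libraries. With only the groups compared, 130 of the calls had a value and 112 of those stayed called. Counts of called genes moved more. With a constant prior they were 23 nuclear genes in YT against control (35 in the reported fit), 1 mitochondrial in cGAS (5), 2 nuclear and 2 mitochondrial in STING (5 each), 8 nuclear in cGAS_YT (16), 0 mitochondrial in STING_YT (2) and 0 for the interaction of YT and STING (1). With only the groups compared they were 20 nuclear in YT, 32 nuclear in cGAS (21), 9 nuclear in STING, 25 nuclear and 1 mitochondrial in cGAS_YT (16 and 0), 7 mitochondrial in STING_YT and 0 for the interaction with STING. DESeq2 gave 1 mitochondrial gene in YT (0), 2 in cGAS, 2 in STING and 1 in STING_YT, and 2 nuclear genes for the interaction with STING. Plain CPM gave 2 mitochondrial genes on the YT average (1) and 0 for the interaction with STING, which was also 0 with a pseudocount of 0.25, a mean of 5 CPM, median of ratios and without mitochondrial reads. The cause was not tested.

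With each library left out, the counts ranged for nuclear genes from 24 to 42 (YT), 11 to 33 (cGAS), 1 to 14 (STING), 6 to 26 (cGAS_YT), 18 to 41 (STING_YT), 42 to 55 (YT average), 4 to 21 (interaction with cGAS) and 0 to 19 (interaction with STING). For mitochondrial genes they ranged from 0 to 7 (YT), 1 to 10 (cGAS), 1 to 11 (STING), 0 to 0 (cGAS_YT), 0 to 3 (STING_YT), 1 to 9 (YT average), 0 to 4 (interaction with cGAS) and 0 to 1 (interaction with STING), and for the F test from 61 to 82. The log2 ratio of mitochondrial to nuclear reads ranged from -0.0048 to 0.745 in YT, 0.0948 to 0.845 in cGAS, 0.135 to 0.885 in STING, 0.0223 to 0.133 in cGAS_YT and 0.301 to 0.702 in STING_YT, and its reversal in YT came without control replicate 2. No paired analysis was possible because no replicate number is shared between groups. With 2 libraries in a group, the shared spread of the 6 groups sets every error. At the level of NDUFV2 or ATP5L2, a few reads decide a change.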

Other observations

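Transcripts of 11 mitochondrial tRNA genes, which lie among the protein and ribosomal RNA genes in the long precursors, were in the table but belong to no comparison above. Their share of all mitochondrial reads was 3.69% and 2.81% in cGAS_YT, 2.503% and 2.403% in cGAS, 2.45% and 2.70% in STING_YT, 2.19% and 1.93% in STING, 1.76% and 2.15% in YT, and 1.42% and 1.67% in control. Both control libraries lay below the 10 others. By limma 6 of 11 rose in YT against control, 6 in cGAS against control and 2 in STING against control, comparisons that share the control libraries, with medians of 0.54, 0.62 and 0.31, and none fell. Of all genes 20.6%, 11.1% and 6.14% rose in these comparisons. Some of the called tRNA genes were near the floor. MT-TE, called in YT and in cGAS, had 0.259 and 0.341 CPM in control, where a few reads decide a change. MT-TQ, called in cGAS, had 4.46 and 1.93 CPM in control. The tRNA calls were not tried with a library left out. In cGAS_YT against cGAS 1 rose and 0 fell, where 15% of all genes rose, and in STING_YT against STING 2 rose and 1 fell, where 19.1% rose and 19.8% fell.

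MT-TF, the phenylalanine tRNA gene that lies next to the control region, had 600.1 and 528 CPM in cGAS, 482 and 570 CPM in STING, and 343 and 371 CPM in YT, against 306 and 225 CPM in control. It was called higher in all 3 comparisons, by 0.44 on the log2 scale in YT and by more in cGAS and STING. MT-TL1, a leucine tRNA gene, rose in each of the 5 comparisons of 2 groups, by 0.50 to 0.64. On the average of the 3 YT comparisons 6 of 11 rose (MT-TF, MT-TV, MT-TL1, MT-TI, MT-TM and MT-TP), where 29.4% of all genes rose. MT-TY and MT-TQ fell by 0.54 and 0.53, and MT-TS2, MT-TE and MT-TT were not called. A 3′ end protocol primed on poly(A) does not measure mature tRNA, so these reads describe polyadenylated or adjoining transcripts as counted, and no test of their source was made.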
